A study of Homo sapiens with 60 samples.

Results

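The complement genes described here are 9 of the 60675 genes in the count table: C3, C5, the C5a receptor gene C5AR1, the mannose-binding lectin gene MBL2, C1R, C1S, CFB, CFI and SERPING1. They were chosen by name, through the symbols matched to the table's Ensembl identifiers, with results of these libraries already known. The change of C5AR1 at the high dose of Glycyrrhiza was among those results, and MBL2 was singled out together with it, so the values of both genes are given below as a description, with no test. The other 7 were tested within fits over all genes. All 9 had enough counts to enter those fits, as did 26 of 47 other complement genes.

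RNA was measured in HepG2 cells, a human hepatocellular carcinoma line, exposed for 24 h to DMSO vehicle or to a herbal extract at 20 (Low), 100 (Medium) or 500 (High) µg/mL. Ethanol extracts of single herbs came from Glycyrrhizae Radix (Glycyrrhiza, licorice root), Poria cocos (Poria), Atractylodis Rhizoma (Atractylodis), Panax ginseng (Ginseng), Angelicae Gigantis Radix (Angelica) and Paeoniae Radix (Paeonia), while Sibjeondaebo-tang (SDT) and Palmul-tang (PMT) were water extracts of herbal formulas. There were 3 libraries in each group of SDT, Poria, Atractylodis, Glycyrrhiza, Ginseng and vehicle, 2 in each of PMT and 1 in each of Angelica and Paeonia, which makes 60 libraries in 25 groups. The labels give the vehicle as 0.1% DMSO and the series text as 2%, and the DMSO content of the treated cultures is not stated. All groups are 1 cell line, and nothing in the labels tells if replicates came from separate cultures, so the p-values measure the spread between these libraries, which may be technical.

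Complement is a cascade of plasma proteins, made largely by hepatocytes, that marks microbes and debris for removal. Antibody-bound C1 and sugar-bound mannose-binding lectin start it through serine proteases, C3 is cut in the common step, factor B amplifies that cut, and C5 starts the lytic complex and releases the attractant C5a. C1 inhibitor and factor I hold the cascade back, and C5a acts through a receptor best known from myeloid cells.

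The libraries held 19057230 to 33233215 counts. Levels are given as CPM, counts scaled to a common library size after TMM normalisation. All 9 hepatocyte markers examined were expressed (summed level 43700 to 46400 CPM in Glycyrrhiza High and 56100 to 58000 CPM in vehicle). Among 10 leukocyte and macrophage markers, PTPRC and TYROBP had 0 counts in all 60 libraries, but 4 had enough counts to enter the fits. LYZ had 865 CPM in Glycyrrhiza High and 1210 CPM in vehicle, and CD68 had 158 and 52 CPM. CSF1R, ITGAM, AIF1 and CD163 reached at most 0.399 CPM in any library. Per kilobase of exon, vehicle cells held most C3 (281 ± 5.34 CPM per kb, SD, n = 3), followed by CFI (38.7), CFB (33.3), C5 (31.5), MBL2 (7.69), SERPING1 (6.52), C1S (6.38), C1R (2.37) and C5AR1 (0.126). In such bulk RNA, fewer cells of a type and less RNA per cell cannot be told apart.

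C5AR1, on chromosome 19 from 47290023 to 47322066 (GRCh38, plus strand), encodes the receptor through which C5a attracts and activates cells. It stood out in 1 group. Vehicle had 0.3754, 0.4016 and 0.3405 CPM, Glycyrrhiza Low had 0.2858, 0.4051 and 0.4491 CPM, and Glycyrrhiza Medium had 0.5744, 0.4286 and 0.8611 CPM. The 3 libraries of Glycyrrhiza High had 10.33, 13.93 and 12.27 CPM (308, 472 and 281 counts). All 3 libraries of Glycyrrhiza High lay above every other library of the study. The fitted log2 change was 4.99 (SE 0.246) for Glycyrrhiza High against Low and 5.02 (SE 0.246) against vehicle. The single library of Paeonia High came next, with 1.168 CPM (33 counts, exact Poisson 95% interval 0.8038 to 1.64 CPM, counting error only). The other 56 libraries had 2 to 21 counts of C5AR1, or 0.1079 to 0.8611 CPM. Glycyrrhiza Medium, with a mean of 0.6214 CPM, led those groups, and its range overlapped that of PMT Medium, next in the order. From there down to Angelica Medium each group's range overlapped the next one's, vehicle standing in the middle at 0.3725 ± 0.0307 CPM (SD, n = 3). The fitted log2 changes of C5AR1 between High and Low of the other extracts, at 1.27 (SE 0.582) in PMT, 0.76 (SE 0.414) in Poria and -0.25 to 0.26 in SDT, Atractylodis and Ginseng, rest on such counts.

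The gene beside it on the same strand, C5AR2, encodes the other C5a receptor, which lacks G protein coupling. It was not a member of the 9. It passed the filter on low counts only through Glycyrrhiza High, so its values there are a description too. Glycyrrhiza High had 69, 76 and 65 counts (2.31, 2.24 and 2.84 CPM), against 4, 0 and 1 counts in Glycyrrhiza Low. The ratio of the summed counts was 43.7, with an exact conditional 95% interval of 18.4 to 136 that covers counting error only. The other 57 libraries had 0 to 10 counts of C5AR2. Among them was Paeonia High, second in C5AR1, with 0.1415 CPM of C5AR2.

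The RefSeq start regions of both receptor genes (GRCh38.p14, 250 bases before to 50 after the annotated start, 5′ to 3′ on the plus strand) are shown because these neighbours were both highest in the same 3 libraries. Windows of this kind were found for 6 of the 9 members and for C5AR2. That of C5AR1, at chr19:47309611-47309910, lies within the longer gene span given above, and that of C5AR2 is at chr19:47331925-47332224. Capitals mark matches to any of 5 motifs, searched on both strands.
C5AR1: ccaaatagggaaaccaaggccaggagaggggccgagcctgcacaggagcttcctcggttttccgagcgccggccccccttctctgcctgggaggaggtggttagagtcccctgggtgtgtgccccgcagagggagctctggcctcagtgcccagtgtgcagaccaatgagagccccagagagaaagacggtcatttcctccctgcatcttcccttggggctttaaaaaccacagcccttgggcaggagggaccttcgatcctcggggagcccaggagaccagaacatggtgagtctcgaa
C5AR2: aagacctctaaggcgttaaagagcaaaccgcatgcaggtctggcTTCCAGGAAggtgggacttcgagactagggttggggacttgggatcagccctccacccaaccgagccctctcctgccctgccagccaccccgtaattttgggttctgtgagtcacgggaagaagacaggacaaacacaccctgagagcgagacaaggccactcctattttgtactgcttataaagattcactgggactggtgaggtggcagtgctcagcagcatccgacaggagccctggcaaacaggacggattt
The motifs were GCGTG, the core of the xenobiotic response element (in 36.5% of all 35116 windows of this length), TGACNNNGC, that of the antioxidant response element (13.3%), TGATGNAA, found in amino acid response elements (3.62%), TTCNNNGAA, bound by STAT factors (7.66%), and GTTAAT, the repeat unit of the HNF1 site (6.88%). No match was found in the C5AR1 window, and that of C5AR2 held TTCNNNGAA once, from base -206 to -198 counted from the start.

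**Figure D1:**
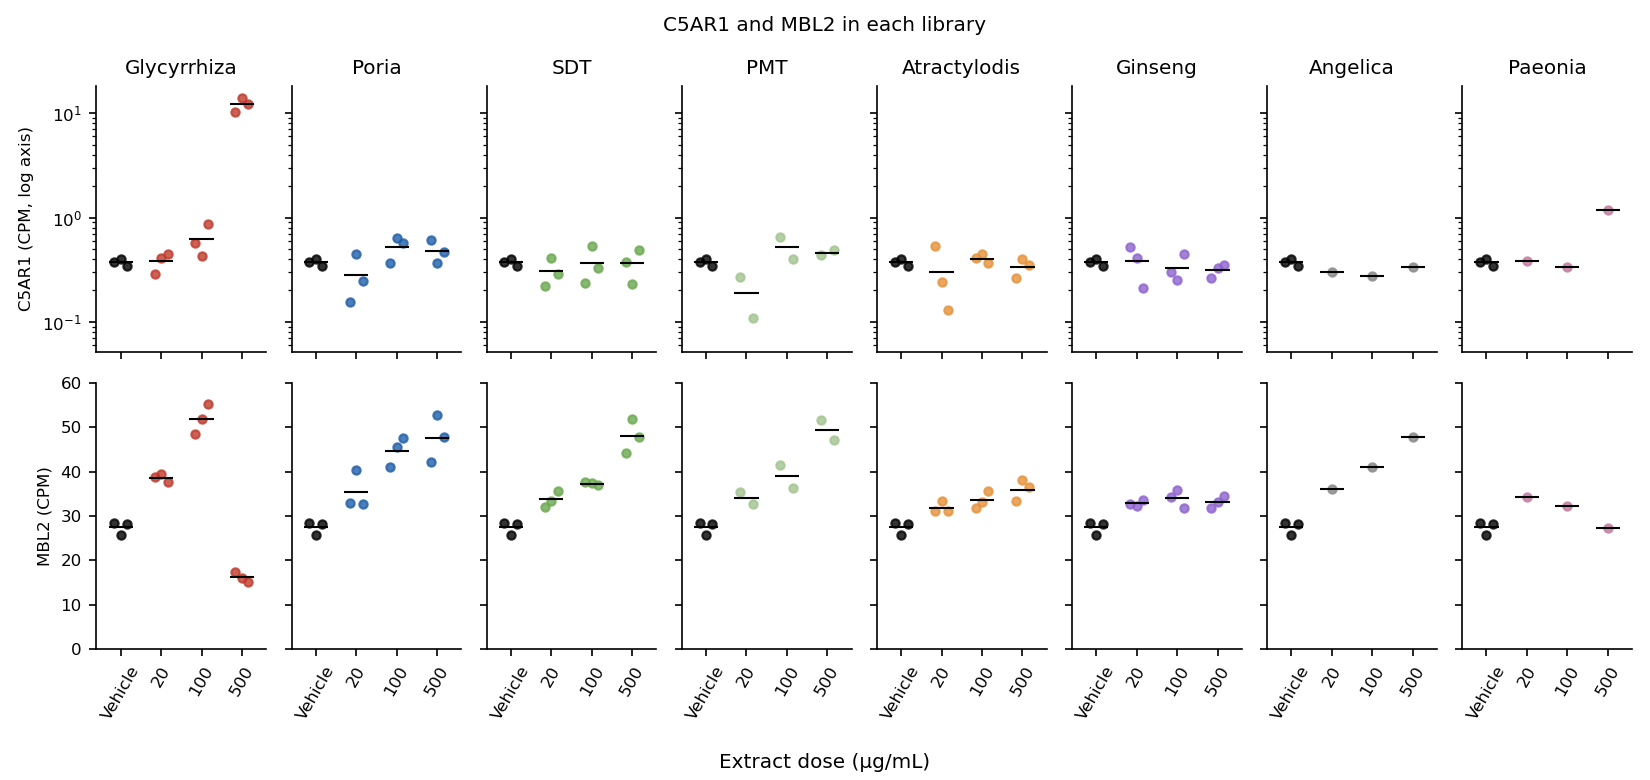
Level of C5AR1 (top, CPM on a log axis) and MBL2 (bottom, CPM on a linear axis) in each of 60 libraries, by extract, with vehicle and the doses of 20, 100 and 500 µg/mL from left to right. Points are libraries, lines are group means, and the same 3 vehicle libraries are drawn in each panel. C5AR1 reaches 10.33 to 13.93 CPM in Glycyrrhiza High, where MBL2 is at its lowest, 15.15 to 17.48 CPM.

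MBL2, on chromosome 10 from 52765380 to 52771700 (minus strand), encodes the lectin that binds microbial sugars and starts the lectin pathway. In Glycyrrhiza its level did not follow dose in 1 direction. Vehicle had 28.43, 25.73 and 28.2 CPM, Glycyrrhiza Low had 38.77, 39.53 and 37.58 CPM, Glycyrrhiza Medium had 48.44, 51.8 and 55.23 CPM, and Glycyrrhiza High had 17.48, 15.96 and 15.15 CPM. None of these groups overlapped another. Glycyrrhiza Medium had the highest mean of the 25 groups and Glycyrrhiza High the lowest. The fitted log2 change was -1.25 (SE 0.0805) for High against Low, -0.75 (SE 0.0823) for High against vehicle and 0.92 (SE 0.075) for Medium against vehicle.

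In most other extracts the MBL2 level was higher at the higher dose. Means in SDT were 33.74, 37.34 and 48.03 CPM at Low, Medium and High, in PMT 34.05, 38.99 and 49.35 CPM, and in Poria 35.39, 44.77 and 47.63 CPM. In Atractylodis they were 31.86, 33.57 and 35.98 CPM with overlapping ranges, and in Ginseng 32.91, 34.02 and 33.16 CPM. High against Low gave log2 changes of 0.51 in SDT, 0.53 in PMT, 0.43 in Poria, 0.18 in Atractylodis and 0.02 in Ginseng. Single libraries of Angelica had 36.19, 40.99 and 47.85 CPM from Low to High, while those of Paeonia ran the other way, at 34.28, 32.36 and 27.32 CPM. Among the treated libraries outside Glycyrrhiza High, that of Paeonia High was the 1 within the vehicle range. In the order of means, the 10 groups from Glycyrrhiza Medium down to SDT Medium each overlapped the next, as did those from Angelica Low to Atractylodis Low.

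The start region of MBL2 is shown beside that of CFI, the other member that was lowest in Glycyrrhiza High, in the same form as above (minus strand, chr10:52771603-52771902 for MBL2 and chr4:109801950-109802249 for CFI).
MBL2: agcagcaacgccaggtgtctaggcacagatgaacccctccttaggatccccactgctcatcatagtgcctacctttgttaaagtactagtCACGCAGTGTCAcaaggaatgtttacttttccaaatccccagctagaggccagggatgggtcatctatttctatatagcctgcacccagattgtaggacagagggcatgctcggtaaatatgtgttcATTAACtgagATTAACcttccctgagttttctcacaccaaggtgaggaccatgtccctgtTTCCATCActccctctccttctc
CFI: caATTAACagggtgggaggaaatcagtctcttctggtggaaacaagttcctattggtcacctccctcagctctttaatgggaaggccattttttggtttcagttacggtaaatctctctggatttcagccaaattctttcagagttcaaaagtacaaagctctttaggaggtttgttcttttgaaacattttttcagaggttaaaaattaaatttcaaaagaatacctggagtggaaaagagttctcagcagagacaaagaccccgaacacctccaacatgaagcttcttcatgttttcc
The MBL2 window held the HNF1 unit at bases -33 to -28 and -23 to -18, TGATGNAA at 27 to 34, and TGACNNNGC at -157 to -149, which overlaps GCGTG at -160 to -156. The CFI window held the HNF1 unit at -248 to -243. Of the other members' windows, that of C1R held no match and that of CFB held TTCNNNGAA at -92 to -84. The C5 window also held the HNF1 unit, at -66 to -61, and C5 had a log2 change of 0.01 in Glycyrrhiza High against Low. Such a match describes letters and shows no binding.

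Over the 25 group means of log2 CPM, the genes whose pattern was most like that of C5AR1 were HPD (Pearson correlation 0.960), SMOX (0.956), MBP (0.955), SARS1 (0.954) and VAT1 (0.953). These means share libraries, depth and the vehicle group, and Glycyrrhiza High sets most of their spread, so the values are a description. SARS1 had 201 CPM in Glycyrrhiza High, 85.3 CPM in Glycyrrhiza Low and 84.2 CPM in vehicle, and SMOX had 81.6, 30.5 and 30.1 CPM in those groups. Among the genes most like MBL2 were HAUS6 (0.891), HDGF (0.891), CDC5L (0.884) and DDX46 (0.874). HAUS6 had 48.7 CPM in Glycyrrhiza High, 80.6 CPM in Glycyrrhiza Low and 70.9 CPM in vehicle.

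CFI, on chromosome 4 from 109740694 to 109802179 (minus strand), encodes factor I, the protease that degrades C3b and C4b and so ends amplification. It fell at the high dose in Glycyrrhiza and, to a smaller extent, in Poria, Atractylodis and Ginseng. Vehicle had 195.8, 185.2 and 185.3 CPM, Glycyrrhiza Low had 189.1, 189.3 and 188.0 CPM, Glycyrrhiza Medium had 166.4, 168.0 and 170.3 CPM, and Glycyrrhiza High had 77.16, 76.31 and 77.76 CPM. The Low libraries lay within the vehicle range, and the High libraries were far below every other library. High against Low gave a log2 change of -1.30 (SE 0.039, adjusted p = 5.19e-30 by edgeR's quasi-likelihood test, Benjamini-Hochberg over 16284 genes, as for all adjusted p-values here). Poria High had 134.3, 147.8 and 143.3 CPM, against 188.0, 189.1 and 186.3 CPM in Poria Low, without overlap (log2 -0.41, SE 0.0383, adjusted p = 5.63e-12). In Atractylodis the change was -0.17 (adjusted p = 0.00271) and in Ginseng -0.12 (adjusted p = 0.0439). The Atractylodis call was lost with no filter on low counts and with only the groups compared (adjusted p up to 0.13). The Ginseng call was lost under both of these and without any 1 of 4 libraries, Ginseng High 2 or 3 or Ginseng Low 2 or 3 (adjusted p up to 0.36 over the alternatives). CFI did not pass in SDT (-0.02) or PMT (-0.01).

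The C1 proteases and their inhibitor formed the next group of members. C1S, on chromosome 12 from 6988259 to 7071032 (plus strand), encodes the protease that cuts C4 and C2. It rose in Glycyrrhiza High, with 48.78, 53.27 and 53.22 CPM, against 31.56, 31.66 and 29.02 CPM in Glycyrrhiza Low (log2 0.75, SE 0.0612, adjusted p = 1.69e-14). Glycyrrhiza Medium, at 32.29 ± 0.568 CPM (SD, n = 3), stayed near Low, and vehicle stood between, at 41.2 ± 0.898 CPM. In Poria C1S had a log2 change of -0.18 (adjusted p = 0.0281), a call lost when Poria High 1, Poria High 2, Poria Low 2 or Poria Low 3 was left out. It was also lost with only the groups compared (adjusted p up to 0.112 over the alternatives). C1S did not pass in the other 4 extracts, at -0.11 to 0.18. The annotated span of C1S overlaps EMG1 on its own strand and LPCAT3 on the opposite one, whose changes in Glycyrrhiza High against Low were 0.01 (adjusted p = 0.964) and 0.14 (adjusted p = 0.0213).

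C1R, on chromosome 12 from 7080199 to 7092607 (minus strand), encodes the protease that activates C1s. It fell in Poria, where High had 8.753, 8.698 and 10.32 CPM, against 14.91, 12.08 and 13.19 CPM in Low (log2 -0.53, SE 0.0764, adjusted p = 2.35e-07). The groups did not overlap. In Glycyrrhiza its change was -0.02 (SE 0.0699, adjusted p = 0.797), with 11.91 ± 0.32 CPM at High and 12.07 ± 0.516 CPM at Low (SD, n = 3), and in the other 4 extracts -0.12 to 0.01, none of which passed. SERPING1, on chromosome 11 from 57597387 to 57614853 (plus strand), encodes C1 inhibitor, the serpin that blocks C1r, C1s and the lectin pathway proteases. It passed between High and Low in Atractylodis, with 25.54, 23.52 and 25.21 CPM at High, against 33.32, 26.36 and 32.6 CPM at Low (log2 -0.31, SE 0.0972, adjusted p = 0.0428). That call was lost when any 1 library of Atractylodis High, or Atractylodis Low 1 or 3, was left out. It was also lost with only the groups compared (adjusted p up to 0.199 over the alternatives). Elsewhere SERPING1 did not pass, at -0.28 in Ginseng (adjusted p = 0.0745) to 0.11 in Glycyrrhiza (adjusted p = 0.339). Vehicle had 25.63, 21.75 and 23.09 CPM of SERPING1. Against vehicle, Atractylodis High did not pass (0.08, adjusted p = 0.566), while Atractylodis Low was called higher (0.39, adjusted p = 0.00199).

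CFB, on chromosome 6 from 31945650 to 31952084 (plus strand), encodes factor B, the protease of the alternative pathway convertase. It was lower at High than at Low in 5 of 6 extracts. Poria High had 119.9, 126.8 and 130.0 CPM, against 161.7, 164.9 and 162.8 CPM in Poria Low (log2 -0.38, SE 0.0412, adjusted p = 2.92e-10). The changes were -0.36 in Ginseng (adjusted p = 2.98e-08), -0.32 in Atractylodis (adjusted p = 4.47e-07), -0.27 in PMT (adjusted p = 0.00146) and -0.16 in SDT (adjusted p = 0.0388). The PMT call was lost with only the groups compared and without PMT High 2, with log2 changes of -0.30 to -0.24 over the alternatives. The SDT call was lost with no filter on low counts and with only the groups compared (adjusted p up to 0.218 over the alternatives). It was also lost without any 1 of 5 libraries, SDT Low 3 being the exception. Glycyrrhiza showed no such difference between its ends (0.00, SE 0.0406), with 147.9 ± 5.07 CPM at High and 147.9 ± 4.77 CPM at Low, but its Medium group was lower, at 124.6 ± 2.35 CPM (SD, n = 3). CFB overlaps C2 on the same strand, and counts of the readthrough gene that joins them came to 67 over all 60 libraries.

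C5, on chromosome 9 from 120952335 to 121050276 (minus strand), supplies C5a and C5b. Poria High had 149.3, 162.2 and 163.5 CPM, against 232.8, 244.6 and 194.7 CPM in Poria Low (log2 -0.50, SE 0.0514, adjusted p = 5.93e-11), without overlap. It was also lower at High than at Low in SDT (-0.22, adjusted p = 0.0151), Ginseng (-0.21, adjusted p = 0.00654) and Atractylodis (-0.17, adjusted p = 0.0375). The SDT call was lost without SDT High 1, SDT High 3 or SDT Low 1, and the Atractylodis call without Atractylodis High 1, Atractylodis High 3 or Atractylodis Low 2. Each was also lost with only the groups compared, and that of Atractylodis with no filter on low counts. Over the alternatives the adjusted p reached 0.118 in SDT and 0.245 in Atractylodis. PMT had a like change of -0.23 that did not pass (adjusted p = 0.0964), and Glycyrrhiza had 0.01 (SE 0.0507, adjusted p = 0.936). Against vehicle, at 205.8 ± 8.91 CPM (SD, n = 3), C5 at High was called lower in Poria alone (-0.37, adjusted p = 5.43e-08). High did not pass in SDT, Ginseng or Atractylodis (-0.01, -0.03 and 0.01), where Low was called higher (0.21, 0.18 and 0.18). Without Vehicle 2 the Low calls of Ginseng and Atractylodis were lost. The C5 level in Glycyrrhiza High was 216.8 ± 5.6 CPM, against 215.5 ± 3.32 CPM in Glycyrrhiza Low (SD, n = 3), while its receptor gene differed as above.

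C3, on chromosome 19 from 6677704 to 6730562 (minus strand), is the central component cut by every pathway. It was lower at High than at Low in 2 extracts, Glycyrrhiza and Ginseng. Glycyrrhiza High had 2436, 2481 and 2422 CPM, against 2803, 2753 and 2805 CPM in Glycyrrhiza Low (log2 -0.19, SE 0.0482, adjusted p = 0.000726). Ginseng High had 2451, 2462 and 2460 CPM, against 2963, 2708 and 2881 CPM in Ginseng Low (log2 -0.21, adjusted p = 0.00496). Neither pair overlapped. C3 did not pass in PMT (-0.23, adjusted p = 0.0662), Atractylodis (-0.12, adjusted p = 0.155), SDT (-0.01, adjusted p = 0.966) or Poria (0.00, adjusted p = 1). Vehicle had 2301, 2333 and 2389 CPM of C3. Against vehicle, High did not pass in Glycyrrhiza (0.07, adjusted p = 0.22) or Ginseng (0.08, adjusted p = 0.207), while Low was called higher in both (0.26 and 0.29). C3 overlaps GPR108 on the same strand, which rose by a log2 of 0.73 in Glycyrrhiza and had far fewer counts (42534 over all libraries, and 4124662 for C3).

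**Figure D2:**
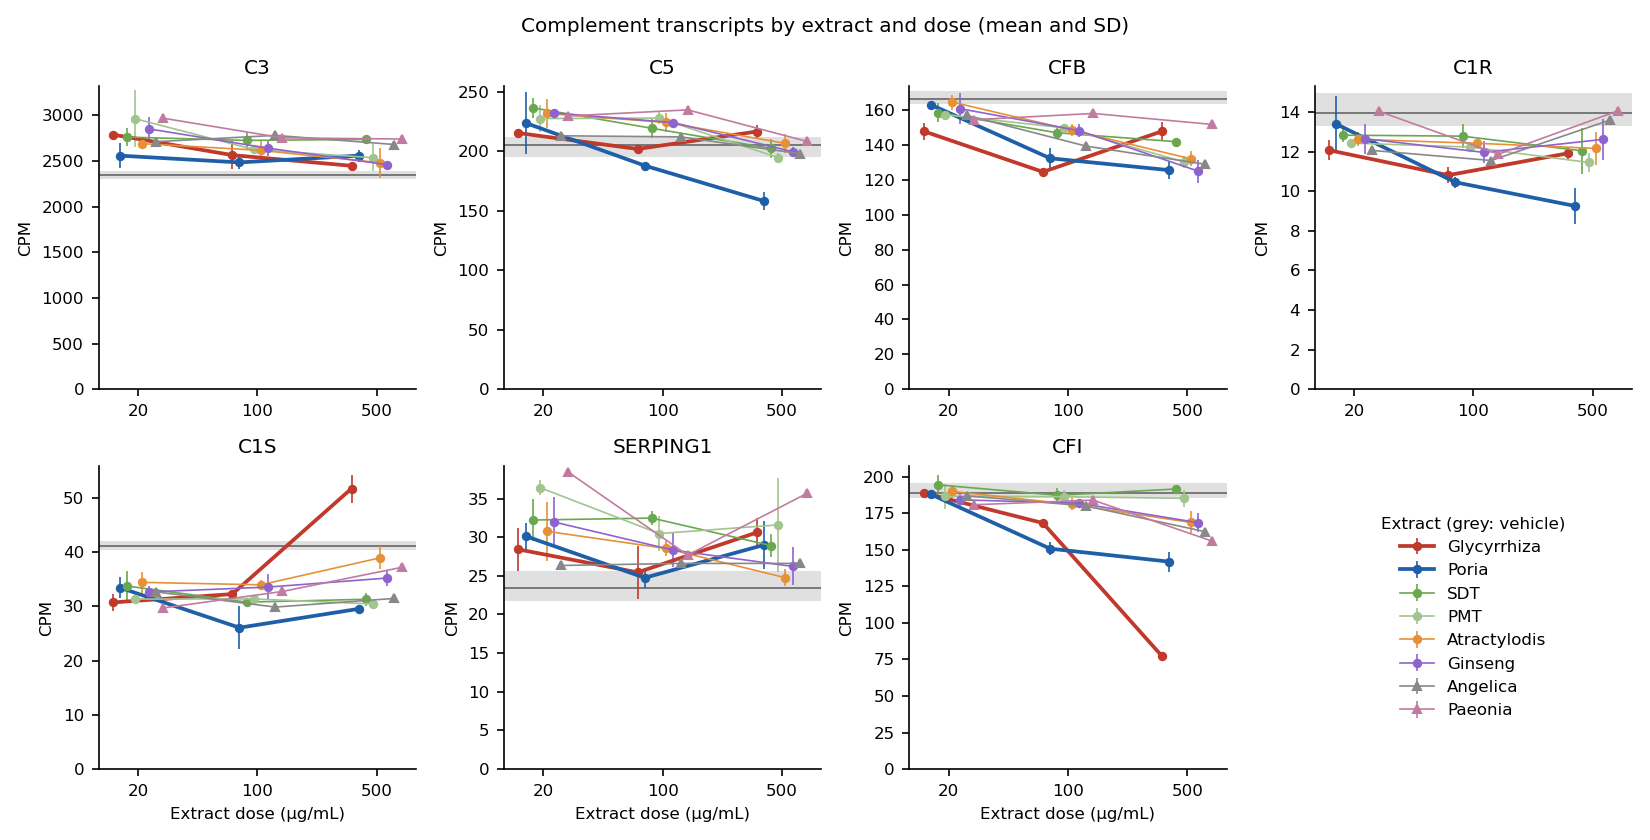
Level in CPM of the 7 tested members at 20, 100 and 500 µg/mL of each extract, with group means joined by lines and bars of 1 SD. Circles have 2 or 3 libraries, triangles 1 library, and the grey band is the range of the 3 vehicle libraries around their mean. CFI drops to 77.08 CPM and C1S reaches 51.76 CPM in Glycyrrhiza High, while C5 and C1R have their lowest means in Poria High. CFB has 125.6 CPM in Poria High, and as little in Ginseng High (125.1 CPM) and Glycyrrhiza Medium (124.6 CPM).

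Counted over the 7 tested members, High against Low gave 1 higher and 2 lower in Glycyrrhiza, where 28.4% of all 16284 genes were called higher and 27.8% lower (56.3% in all). In Poria it gave 0 higher and 5 lower, against 20% higher and 18.4% lower of all genes (38.4%). In Atractylodis it gave 0 and 4, against 3.39% and 3.02% (6.41%), and in Ginseng 0 and 4, against 2.92% and 2.87% (5.79%). In SDT it gave 0 and 2, against 0.522% and 0.522% (1.04%), and in PMT 0 and 1, against 0.197% and 0.319% (0.516%). No test of these counts against the background was made. Without any 1 library the Atractylodis count was 2 or 3, and that of SDT was 0 without SDT High 1 and that of PMT 0 without PMT High 2. The median log2 change of the 7 was -0.38 in Poria, -0.21 in PMT and in Ginseng, -0.17 in Atractylodis, -0.105 in SDT and 0.00 in Glycyrrhiza, while the median of all genes lay within 0.01 of 0 in each. Fitting the groups of each comparison alone gave 12 calls in place of 19, with 1 in Atractylodis and 0 in SDT and PMT. The background moved too when 1 library was left out, the calls over all genes falling to as few as 581 of 1044 in Atractylodis (without Atractylodis Low 3), 526 of 943 in Ginseng (without Ginseng High 3), 88 of 170 in SDT (without SDT High 1) and 29 of 84 in PMT (without PMT Low 3).

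Whether the dose responses themselves differed between extracts was tested as a difference of High minus Low. Glycyrrhiza minus Poria was called for 6 of 7 members, 4 higher and 2 lower (21.8% and 23.8% of all genes, 45.6% in all). It was 0.93 for C1S (SE 0.0897, adjusted p = 7.46e-12), 0.51 for C5 (adjusted p = 1.16e-07), 0.50 for C1R (adjusted p = 7.81e-05), 0.37 for CFB (adjusted p = 5.94e-07), -0.19 for C3 (adjusted p = 0.0196) and -0.89 for CFI (SE 0.0544, adjusted p = 4.29e-18). The C3 difference was lost with no filter on low counts and without Poria Low 3 (adjusted p up to 0.0825 over the alternatives). The fall of CFI was therefore larger in Glycyrrhiza than in Poria by the test of the difference. C5, C1R and CFB fell in Poria and were not called between High and Low in Glycyrrhiza (0.006, -0.024 and -0.003).

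Set against the mean of SDT, PMT, Atractylodis and Ginseng, the Glycyrrhiza response was higher for 4 members and lower for 1 (26.4% and 26.2% of all genes, 52.5% in all). C1S differed by 0.71 (SE 0.07), SERPING1 by 0.35 (SE 0.108), CFB by 0.27, C5 by 0.21 and CFI by -1.22 (SE 0.0437, adjusted p = 8.57e-27). The Poria response was higher for 1 and lower for 4 (15.2% and 13.6% of all genes, 28.7% in all), by 0.14 for C3, -0.21 for C1S, -0.29 for C5, -0.33 for CFI and -0.46 for C1R (SE 0.0857, adjusted p = 3.66e-05). Leaving out Poria High 1, Poria Low 2 or Poria Low 3 ended the C1S call (adjusted p up to 0.0903), and the C3 call was kept in 16 of its 35 alternatives (adjusted p up to 0.235). CFB, which fell in Poria, did not differ there from the other 4 extracts beyond the threshold (-0.10, SE 0.0465, adjusted p = 0.1).

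**Figure D3:**
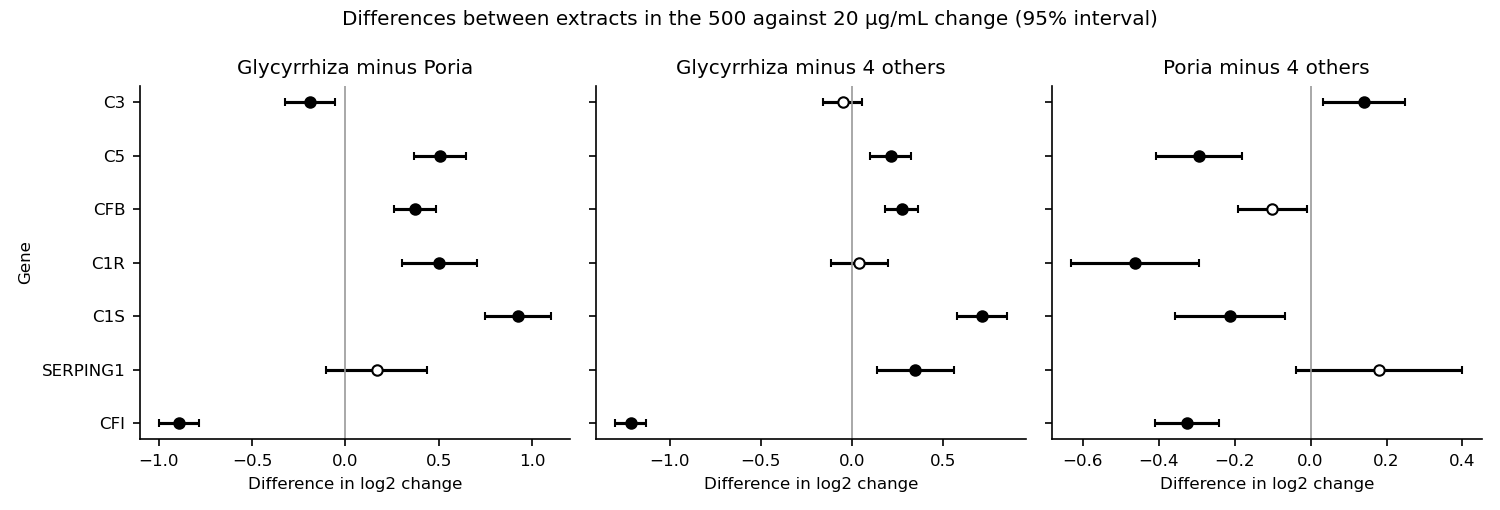
Difference between extracts in the log2 change of 500 against 20 µg/mL for the 7 tested members, for Glycyrrhiza minus Poria, Glycyrrhiza minus the mean of 4 other extracts, and Poria minus that mean. Points are fitted differences with 95% intervals, filled where the adjusted p was under 0.05. CFI lies farthest below 0 in both Glycyrrhiza panels, at -0.89 and -1.22, and C1S farthest above, at 0.93 and 0.71.

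Mitochondrially encoded transcripts took 17.8% to 18.4% of counts in Glycyrrhiza High and 15.1% to 17% in Glycyrrhiza Low, and 19.7% to 22.3% in Poria High and 15.8% to 17.5% in Poria Low. Without those genes in the library sizes, 3 members were called in Glycyrrhiza and 5 in Poria, the counts given above. The leukocyte and macrophage markers summed to 978 to 1060 CPM in Glycyrrhiza High and 1200 to 1340 CPM in vehicle, most of it LYZ (865 and 1210 CPM). CD68 stood at 158 CPM in Glycyrrhiza High and 52 CPM in vehicle, and CD14 at 3.47 and 3.12 CPM. The part of the lower hepatocyte marker sum in the values of MBL2 and CFI was not tested.

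Against vehicle, some members differed at the low dose. C3 and SERPING1 were higher and C1S lower than vehicle at Low in all 6 replicated extracts. For C3 and SERPING1 this was opposite in direction to their calls between High and Low, which were lower. The change at Low ran from 0.14 to 0.35 for C3, from 0.28 to 0.64 for SERPING1 and from -0.41 to -0.25 for C1S. The C1S calls were kept in every alternative. That of C3 in Poria was kept in 5 of 12 (adjusted p up to 0.223), being lost without Vehicle 1, Vehicle 2, Poria Low 1 or Poria Low 2. It was also lost with no filter on low counts, with only the groups compared and without mitochondrial genes. That of SERPING1 was lost in Glycyrrhiza without Vehicle 2, Vehicle 3, Glycyrrhiza Low 2 or Glycyrrhiza Low 3 (up to 0.136), and in Poria without Vehicle 2 (0.0537). CFI did not pass at Low in any extract (-0.03 to 0.05), and CFB passed there in Glycyrrhiza alone (-0.16, adjusted p = 0.00215), at Medium in all 6 and at High in all 6 (-0.40 to -0.16 at High). C1S at High was higher than vehicle in Glycyrrhiza (0.33, SE 0.0599, adjusted p = 5.05e-06) and lower in SDT, PMT, Poria and Ginseng. All of these comparisons use the same 3 vehicle libraries, whose set code in the labels is shared with no extract, so treatment and set cannot be told apart here.

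At Low, 4 of 7 members differed from vehicle in SDT (35.9% of all genes), PMT (31.1%), Atractylodis (26.9%) and Ginseng (33.4%), 3 in Poria (19.2%) and 5 in Glycyrrhiza (29.7%). At Medium, 4 differed in SDT (36%), Atractylodis (28.3%) and Poria (38.6%), 5 in PMT (29.7%) and Glycyrrhiza (34.9%), and 6 in Ginseng (29.9%). At High, all 7 differed in Poria (51.1%), 5 in Glycyrrhiza (61.3%) and SDT (34.2%), 4 in PMT (29.2%), and 3 in Atractylodis (34%) and Ginseng (36.3%). Of these 79 calls, 19 were lost without Vehicle 2 (6 of SERPING1, 5 each of C1R and C5 and 3 of C3), and the calls at Low then numbered 17 in place of 24. Over all genes, calls then came to 1657 in place of 3129 at Poria Low and 2888 in place of 4380 at Atractylodis Low. In PMT, with 2 libraries a group, they came to 1907 in place of 4763 at High without PMT High 2, 2411 in place of 4834 at Medium without PMT Medium 2, and 2735 in place of 5069 at Low without PMT Low 3.

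In Angelica and Paeonia, with 1 library per dose, log2 ratios to the vehicle mean are given without a test. C1S was below vehicle in all 6 libraries, at -0.47 to -0.15, and C3 above it, at 0.20 to 0.34. CFI stood at -0.22 in Angelica High and -0.28 in Paeonia High, with 162.3 and 155.8 CPM, and between -0.07 and -0.01 in the other 4 libraries. Both High libraries were below the vehicle range of 185.2 to 195.8 CPM. So, by less, were Angelica Medium (179.9 CPM), Paeonia Medium (183.9 CPM) and Paeonia Low (180.7 CPM), while Angelica Low (186.8 CPM) lay within it. CFB had 129 CPM in Angelica High (exact Poisson 95% interval 124.4 to 133.6) and 151.8 CPM in Paeonia High. SERPING1 had 35.67 CPM in Paeonia High and 38.4 CPM in Paeonia Low, but 27.69 CPM in Paeonia Medium.

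Of 47 other complement genes, C1QA, C1QB, C1QC, FCN1, FCN2, COLEC10, CFHR4 and CR1 had 0 counts in all 60 libraries, and C9 had 3 counts over all of them. Of the 26 that entered the fit, the 25 other than C5AR2 gave 11 higher and 9 lower in Glycyrrhiza High against Low (median log2 0.03, and 0.01 over all genes, of which 28.4% were called higher and 27.8% lower). The 7 initiation genes of the classical and lectin pathways among them were called higher. Of the initiation genes among the 9 members, C1S rose, C1R did not pass (-0.02) and MBL2 was lower (-1.25, not tested). C1RL, which encodes a C1r-like protease, rose by 0.91 (SE 0.0537, adjusted p = 3.14e-19), to 87.03 ± 3.2 CPM in High, against 46.24 ± 0.402 CPM in Low (SD, n = 3), and MASP1, which encodes a lectin pathway protease, rose by 0.90 to 39.29 CPM, against 21 CPM. The other 5 were C2 (0.36), C4A (0.20), C4B (0.21), MASP2 (0.31) and COLEC11 (0.68). C4A and C4B are near-identical, so the division of their counts is uncertain, and C1RL overlaps C1R on the same strand.

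The terminal and regulatory genes of Glycyrrhiza divided. C8A and C8B, which encode chains of the lytic complex component C8, fell by 1.39 and 1.30 on the log2 scale, C8A having 8.463 ± 0.793 CPM in High, against 22.11 ± 0.176 CPM in Low (SD, n = 3). C8G, which encodes the third chain, rose by 1.69 (SE 0.208), from low levels of 3.544 CPM in High and 1.086 CPM in Low. C6 had 3 counts over the Glycyrrhiza High libraries, against 34 over the Low libraries, a ratio of 0.0918 (exact conditional 95% interval 0.018 to 0.292, counting error only). CD55, whose product, decay accelerating factor, breaks up convertases on the cell's own surface, rose by 2.00 (SE 0.0921, adjusted p = 3.52e-23), to 39.94 ± 3.81 CPM in High, against 9.993 ± 1.03 CPM in Low (SD, n = 3) and 9.927 CPM in vehicle. CD59, which encodes the inhibitor of the lytic complex, fell by 0.34 (adjusted p = 1.8e-05), and CD46 did not pass (0.03). Among soluble regulators 1 of 6 rose (CPN2, 0.42) and 4 fell, by 0.85 for CPN1, 0.61 for C4BPA, 0.40 for VTN and 0.35 for CLU. ITGAX, a subunit of a complement receptor of leukocytes, was called higher (log2 2.43) on 16 to 24 counts per library in High, against 3 to 4 in Low.

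In Poria, 3 of the 26 were higher and 14 lower (median log2 -0.225, and 0.00 over all genes, of which 20% were called higher and 18.4% lower). The 6 soluble regulators among the 26 were called lower, as was CFI among the members, but SERPING1 did not pass (-0.06, adjusted p = 0.689). Among the 6 were C4BPA (-0.40, SE 0.0735, adjusted p = 2.05e-05) and CPN2 (-0.33). Of the initiation genes 5 of 7 were lower, including MASP2 (-0.38), and MASP1 was higher (0.55, SE 0.0806, adjusted p = 3.23e-07). C8A fell by 1.17 (SE 0.0705, adjusted p = 3.21e-18), to 10.03 ± 0.622 CPM in High, against 22.68 ± 1.84 CPM in Low (SD, n = 3), and C8B by 0.56. CD55 rose by 0.46 (adjusted p = 0.000345), and ITGAX was called higher on 8 to 14 counts per library, against 4 to 6, a call lost when Poria High 1, Poria High 3 or Poria Low 3 was left out, as ITGB2 (-0.37) was without Poria High 1, Poria Low 2 or Poria Low 3. Fewer of the 26 were called elsewhere: 0 higher and 7 lower in Ginseng (5.79% of all genes), 1 and 4 in Atractylodis (6.41%), 0 and 1 in PMT (0.516%, the 1 being C2) and none in SDT (1.04%).

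**Figure D4:**
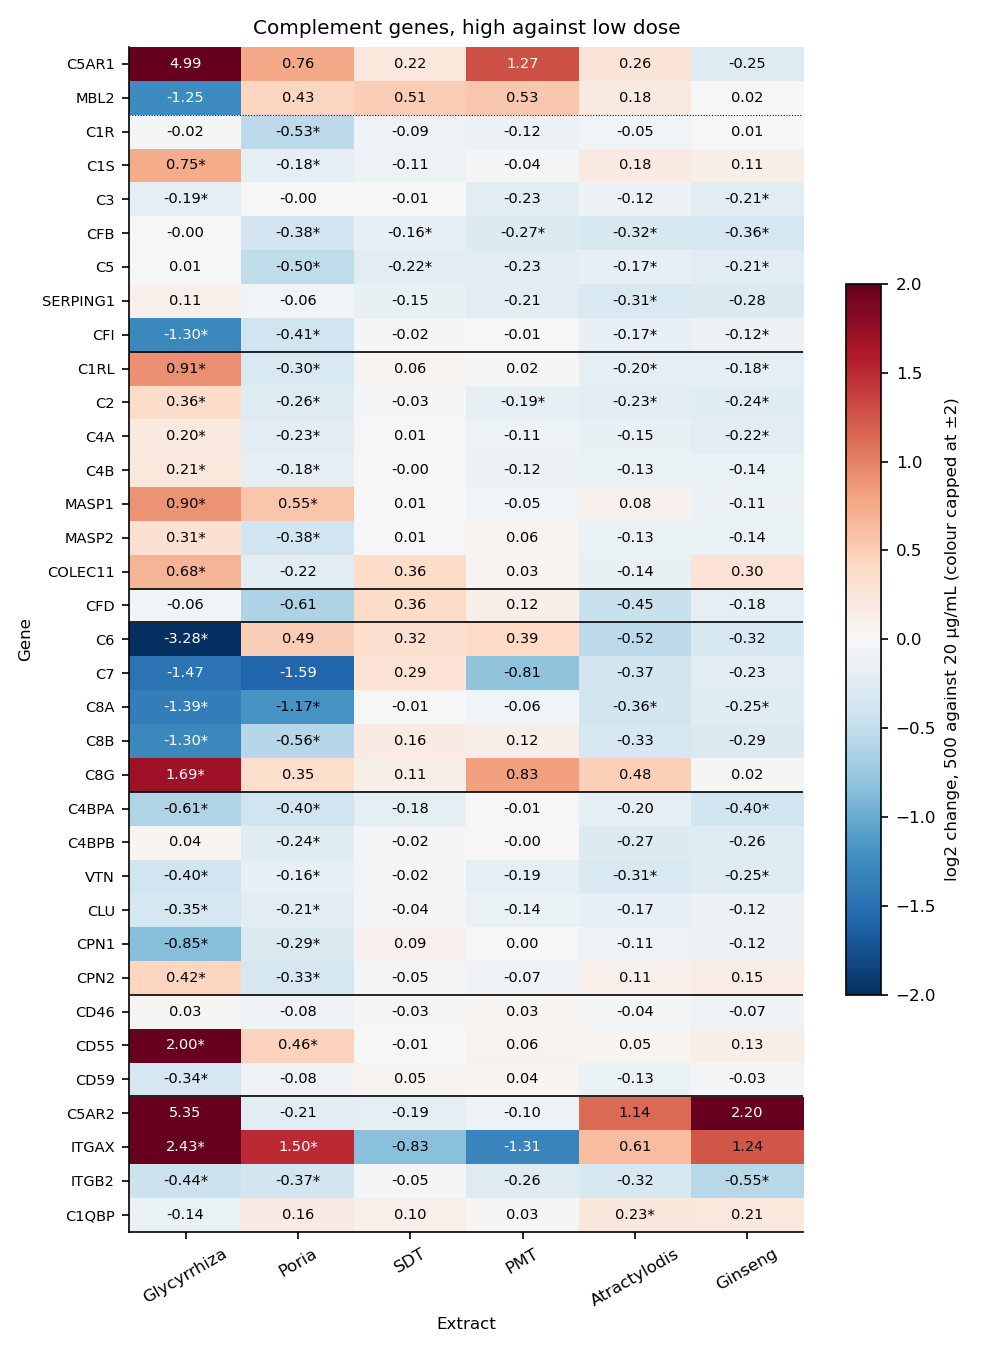
Log2 change of 500 against 20 µg/mL in 6 extracts for the 9 members (top block, C5AR1 and MBL2 above the dotted line without a test) and 26 other complement genes, in blocks of initiation, alternative pathway, terminal pathway, soluble regulators, membrane regulators and receptors. Red is higher and blue lower at 500 µg/mL, and an asterisk marks an adjusted p under 0.05, except for C5AR2 in Glycyrrhiza, which carries none. Glycyrrhiza holds the largest changes, such as 4.99 for C5AR1 and 2.00 for CD55, and the block of 6 soluble regulators that are not members is blue throughout in Poria.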

How the data were processed

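The authors deposited gene-level expected counts, not normalised, which are estimated counts that need not be whole. The tools named in the submitters' processing notes are RSEM 1.3.3, STAR 2.7.3a, Trim Galore 0.6.5 and FastQC 0.11.9, and the build named there is GRCh38. The annotation release and strand setting are not given in the sources used here, although the kit was directional per the labels' protocols. The table had 270 columns of samples, of which 60 were used and 210 were not.

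Expected counts were rounded to whole numbers, and 23.4% of the nonzero values were not whole within 0.005. Symbols came from a gene name table (56558 identifiers matched) and coordinates from GENCODE release 29 on GRCh38 (57055 matched). Start regions came from RefSeq. Genes were kept with filterByExpr (16284 of 60675), scaled by TMM and tested with the quasi-likelihood method of edgeR 4.0.16 under R 4.3.3, with 1 coefficient for each of 19 groups over 54 libraries and Benjamini-Hochberg adjustment at 0.05. Replicates varied by 5.63% (the square root of the common dispersion of 0.00317). The steps were tested on simulated data. Ratios of Angelica and Paeonia to vehicle used log2 CPM with a prior count of 2.

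The members and lists were chosen with earlier results of these data known. Named genes were all members, the 8 other complement genes with the largest changes among those called in Glycyrrhiza and in Poria High against Low, and the 5 genes most like C5AR1 and MBL2, of which 1 is not reported here; further complement genes were named after their values were seen. Alternatives were DESeq2 size factors, the DESeq2 1.42.0 Wald test, no filter on low counts, fits of the groups compared alone, removal of mitochondrial genes, a replicate block, a prior count of 0.5 for single libraries, and leaving out each library. Wortmannin, a control in the series text, was not analysed here.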

Additional observations from a re-analysis of the deposited data

Results flagged for a closer look

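The changes between 500 and 20 µg/mL differed between extracts for 16 pairs of member and contrast by the edgeR quasi-likelihood test of the difference itself. Between Glycyrrhiza and Poria these were C1S (0.93), C5 (0.51), C1R (0.50), CFB (0.37), C3 (-0.19) and CFI (-0.89). Between Glycyrrhiza and the mean of SDT, PMT, Atractylodis and Ginseng they were C1S (0.71), SERPING1 (0.35), CFB (0.27), C5 (0.21) and CFI (-1.22). Between Poria and that mean they were C3 (0.14), C1S (-0.21), C5 (-0.29), CFI (-0.33) and C1R (-0.46). Values are differences of log2 changes, Glycyrrhiza or Poria first. Groups of 2 or 3 libraries were too small to search for a single outlying library.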

How the results depend on the processing

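No alternative reversed the direction of a call, and of 1849 alternative values of 130 called changes in complement genes 1703 kept the call. These include 13 values of C5AR2 in Glycyrrhiza High against Low, all of which kept the call. C5AR2 passed the filter only through Glycyrrhiza High, so its values are a description and no sign of stability. It is also counted below among the other complement genes called in Glycyrrhiza and in all extracts together. Of 144 alternative counts of calls outside the removal of single libraries, 14 moved by over 1.5 times. Fitting only the groups compared, which uses fewer libraries, gave 12 member calls in place of 19 for High against Low in all extracts together, 0 in place of 2 for SDT, 0 in place of 1 for PMT and 1 in place of 4 for Atractylodis; for the other complement genes it gave 0 in place of 1 for PMT, 11 in place of 17 for Poria and 3 in place of 5 for Atractylodis. With no filter on low counts, which tests more genes, members called were 1 in place of 2 for SDT, 2 in place of 1 for PMT and 2 in place of 4 for Atractylodis, and other complement genes 0 in place of 1 for PMT. PMT also had 3 member calls with the DESeq2 Wald test and 2 without mitochondrial genes; the cause was not tested.

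Deviations of same-numbered High and Low libraries correlated at -0.0852 to 0.137, and 2 of 17 pairs passed 0.1. Both were in Atractylodis, where same-numbered pairs had 0.137, 0.125 and 0.0758 and other pairs at most -0.00279. In no other extract did all same-numbered pairs exceed the rest. The main fit used no pairing, and Atractylodis kept 4 member calls under either block described next. With the replicate number as a block, the 19 member calls of High against Low stayed 19 and the 27 of High against vehicle 27. With the block within the set code there were 20, PMT having 2 in place of 1.

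Leaving out 1 library at a time gave 17 to 20 member calls for High against Low (19 with all), 21 to 28 for High against vehicle (27), 23 to 29 for Medium (28), 17 to 25 for Low (24) and 13 to 16 for the differences between extracts (16). By extract, High against Low gave 0 to 2 in SDT (lowest without SDT High 1), 0 to 2 in PMT (lowest without PMT High 2), 4 to 5 in Poria, 2 to 3 in Atractylodis (4 with all), 3 in Glycyrrhiza each time and 3 to 4 in Ginseng. The differences gave 5 to 6 for Glycyrrhiza minus Poria, 5 for Glycyrrhiza and 3 to 5 for Poria against the mean of 4 others. Other complement genes gave 47 to 52 (51 with all), with 13 to 17 in Poria, 20 to 22 in Glycyrrhiza, 4 to 6 in Atractylodis, 3 to 6 in Ginseng (7 with all, 3 without Ginseng High 3), 0 to 1 in PMT and 0 in SDT.

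Over all genes, calls between High and Low came to 410 in SDT and 230 in PMT with no filter, in place of 170 and 84. With only the groups compared they came to 102 in SDT, 39 in PMT, 3977 in Poria (6258) and 338 in Atractylodis (1044), and Poria Low against vehicle to 1037 (3129). Leaving out 1 library moved these counts by over 1.5 times in 9 comparisons, down to 88 in SDT, 29 in PMT, 581 in Atractylodis and 526 in Ginseng (943) for High against Low. Against vehicle, the moves at PMT and at the low doses of Poria and Atractylodis are those given with the vehicle comparisons, and Poria Low came to 1744 without Poria Low 2. Depth limited C5AR1, C5AR2 and ITGAX, which had few counts outside the raised groups. It also limited C6, which had 462 counts over all 60 libraries and was lower in Glycyrrhiza High. Small changes in these genes were therefore not detectable.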
